A study of Mus musculus with 3 samples.

Results

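This account follows 8 genes that move, store and buffer iron and other metals through the cell types of the mouse lung: Fth1 and Ftl1, which encode the ferritin chains, Hmox1, Tfrc, Slc40a1, Slc11a1 and the metallothioneins Mt1 and Mt2. The genes were chosen by name, and 8 of 8 were found among the 21507 genes that both deposited tables share. Their levels were read in each library and in each cell type named from marker genes, with macrophages set against the other types. Lungs of wild type C57Bl/6J mice were profiled by droplet RNA sequencing (10x Chromium) in 3 libraries. The cells, 1 library of 11934 barcodes, were released from fresh lung with collagenase and DNAse and cleared of dead cells on a density gradient. The nuclei, 2 libraries of 6756 and 9806 barcodes after filtering, came from snap-frozen lung of adult mice lysed in Nuclei EZ Lysis buffer. All 3 libraries share strain and genotype and none was treated; the age behind the cells is not given in the labels.

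Preparation and fresh or frozen tissue differed together between cells and nuclei and cannot be told apart. The labels name no separate animals, so p-values rest only on the spread between these libraries, which may be technical in part. That spread was estimated with information pooled over genes, and the single cell library is assumed to vary like the nuclei. Total counts were 35962788 in cells, with 27719346 in nuclei 1 and 27148272 in nuclei 2, and the median barcode held 2864, 4152 and 2521 unique molecular identifiers (UMIs, each counting 1 captured transcript). The libraries shared 21 to 24 barcode sequences pairwise. Levels are CPM, a gene's UMIs scaled to a common total of UMIs for each cell type in a library, and intervals are exact Poisson 95% intervals that cover counting error only. A cell type name stands for clusters that resemble it in its markers. Alveolar macrophages were 2270 of the cells and 154 and 456 of the nuclei, 2880 of 28496 barcodes in all, and 15 of 15 of their markers were over 2-fold higher than in the remaining barcodes of each library. These markers summed to 15510 CPM in alveolar macrophages of the cell library and to 9513 and 6328 CPM in those of nuclei 1 and nuclei 2, against 597, 223 and 255 CPM in the remaining barcodes. Interstitial macrophages, 175 barcodes, were named in cells only, with 9 of 11 markers over 2-fold. The most similar nuclei, 419 nuclei in a cluster led by Aoah, Ms4a7, St18, Cd163 and F13a1, did not meet the naming rule and are called the Cd163 cluster.

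Markers of other cell types were also counted in alveolar macrophages. The 9 club cell markers summed to 1475 CPM in alveolar macrophages of the cell library, against 17212 and 15131 CPM in those of nuclei 1 and nuclei 2, and the 12 type 2 pneumocyte markers to 1005, against 3555 and 4232 CPM. The 4 red blood cell markers ran the other way, at 1043 CPM in the cells and at 343 and 105 CPM in nuclei 1 and nuclei 2. None of these markers was at 0 in any library. Their part in the differences described below was not tested.

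Iron enters most cells bound to transferrin through the transferrin receptor, Tfrc, and is kept in a soluble, harmless form inside ferritin, a hollow shell of heavy (Fth1) and light (Ftl1) chains. It leaves through ferroportin, Slc40a1, the known iron exporter of mammals. Macrophages recover iron from haem with haem oxygenase, Hmox1, and move iron out of phagosomes with Slc11a1 (also called Nramp1), which is known for its part in resistance to intracellular bacteria. Metallothioneins are small proteins rich in cysteine that bind zinc, copper and cadmium, and their genes respond to metals and to glucocorticoids. Alveolar macrophages live on the air side of the alveolus, where they take up inhaled particles, surfactant and stray red blood cells.

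Much of ferritin, Tfrc and ferroportin control is exerted on the mRNA, through a hairpin called the iron responsive element (IRE). With little iron, iron regulatory proteins bind it, which blocks translation where the element lies in the 5′ untranslated region (UTR) and stabilises the mRNA where it lies in the 3′ UTR. The elements are shown here because the assay counts mRNA, so that control of translation by an element in the 5′ UTR is not seen in these counts, whereas stability through the 3′ UTR can be. Each sequence was read from the GENCODE transcripts (GRCm38) and has 29 bases, written 5′ to 3′ on the transcript strand with the loop CAGTGN in capitals.
Fth1 (5′ UTR, chr19:9982732-9982760, plus strand): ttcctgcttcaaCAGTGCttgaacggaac
Ftl1 (5′ UTR, chr7:45459779-45459807, minus strand): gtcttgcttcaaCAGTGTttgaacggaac
Slc40a1 (5′ UTR, chr1:45925465-45925493, minus strand): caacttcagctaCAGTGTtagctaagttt
Tfrc (3′ UTR, chr16:32631219-32631247, plus strand): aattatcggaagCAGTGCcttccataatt
Tfrc (3′ UTR, chr16:32631598-32631626, plus strand): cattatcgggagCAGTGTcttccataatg
Tfrc (3′ UTR, chr16:32631663-32631691, plus strand): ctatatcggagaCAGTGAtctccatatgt
Tfrc (3′ UTR, chr16:32631710-32631738, plus strand): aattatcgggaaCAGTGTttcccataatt
The search asked for the letters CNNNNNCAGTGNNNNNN on the transcript strand with 5 pairs between the bases before and after the loop, G pairing with U allowed. Fth1, Ftl1 and Slc40a1 each held 1 match, in the 5′ UTR, and Tfrc held 4, all in the 3′ UTR. Such a match was found in 565 of 58797 protein-coding transcripts (0.961%) and in 294 of 21877 genes (1.34%), and it is a description of letters and not proof of a working element. The matches place the ferritins and the exporter together in 1 class and Tfrc in the other.

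Ferritin transcripts stood far higher in alveolar macrophages than in any other type of the cell library, and within the range of the other types in both nucleus libraries. Fth1 (chromosome 19, 9980600 to 9985111, GRCm38.p6) had 8119 CPM in alveolar macrophages of the cells (8055 to 8184), against 1594 CPM over all other named types. In nuclei 1 it had 368 CPM in alveolar macrophages and 333 CPM in the other types, and in nuclei 2 it had 242 and 237 CPM. The gap was thus 2.35 on the log2 scale in the cells (CPM + 1), but 0.14 in nuclei 1 and 0.03 in nuclei 2. Over the 23 cell types of the cell library, the next values were 4459 CPM in interstitial macrophages and 2615 CPM in plasmacytoid dendritic cells, and the lowest was 881 CPM in plasma cells. Neither macrophage type's interval overlapped that of the next type in the order, whereas from plasmacytoid dendritic cells to smooth muscle the intervals of neighbours overlapped. In nuclei, alveolar macrophages ranked 5th of 17 types and 13th of 19. The highest were B cells at 505 CPM in nuclei 1 and non-classical monocytes at 653 CPM in nuclei 2.

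Ftl1 (chromosome 7, 45457944 to 45459886) followed the same order at the top. It had 4580 CPM in alveolar macrophages of the cells, 151 in nuclei 1 and 199 in nuclei 2, against 747, 125 and 184 CPM in the other types of those libraries. Interstitial macrophages had 2081 CPM and neutrophils 1565 CPM in the cells, and T, NK and innate lymphoid cells had the lowest level, 422 CPM. Alveolar macrophages therefore lay outside the range of the other types in the cells and inside it in both nucleus libraries. In the fit over 3 libraries with the library as a block, the log2 fold of alveolar macrophages over the other types was 0.88 ± 0.51 (SE) for Fth1 and 1.05 ± 0.53 for Ftl1, and neither was called (edgeR, adjusted over 17293 genes, p 0.243 and 0.188). With each other type weighted equally instead of by its counts, the folds were 1.38 and 1.84 and both were called (edgeR adjusted p 5.622e-05 and 9.595e-07). Ferritin genes have near-identical pseudogenes in the mouse genome, and how the authors' counting shared reads between such copies is not known here.

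Per barcode rather than as CPM, an alveolar macrophage of the cell library held 26.7 Fth1 UMIs, against 14.3 in interstitial macrophages and 2.80 to 8.03 in the 21 types other than macrophages. In nuclei 1 the value was 1.44 per nucleus in alveolar macrophages and 1.14 to 1.65 in the others, and in nuclei 2 it was 0.719 and 0.587 to 0.915. Nuclei of every type thus carried similar numbers of ferritin heavy chain UMIs. Both ferritin genes together made up 1.27% of all UMIs of alveolar macrophages in the cells (exact binomial 95% interval 1.26 to 1.28), and 0.0519% and 0.0441% in nuclei 1 and nuclei 2. In interstitial macrophages the share was 0.654%, and in the other types it was 0.234% in cells and 0.0458% and 0.0421% in nuclei. Of all Fth1 UMIs in the cell library, 56.3% came from alveolar macrophages, which were 19.0% of the cells. In nuclei 1 they gave 2.38% of Fth1 UMIs and were 2.28% of the nuclei, and in nuclei 2 they gave 5.06% and were 4.65%. Within the alveolar macrophages of the cells, the 2205 barcodes of the main cluster had 8186 CPM of Fth1 and the 65 of a cluster led by cell cycle genes such as Top2a and Cdk1 had 6106 CPM. Ftl1 differed the same way, at 4628 and 3134 CPM.

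**Figure D1:**
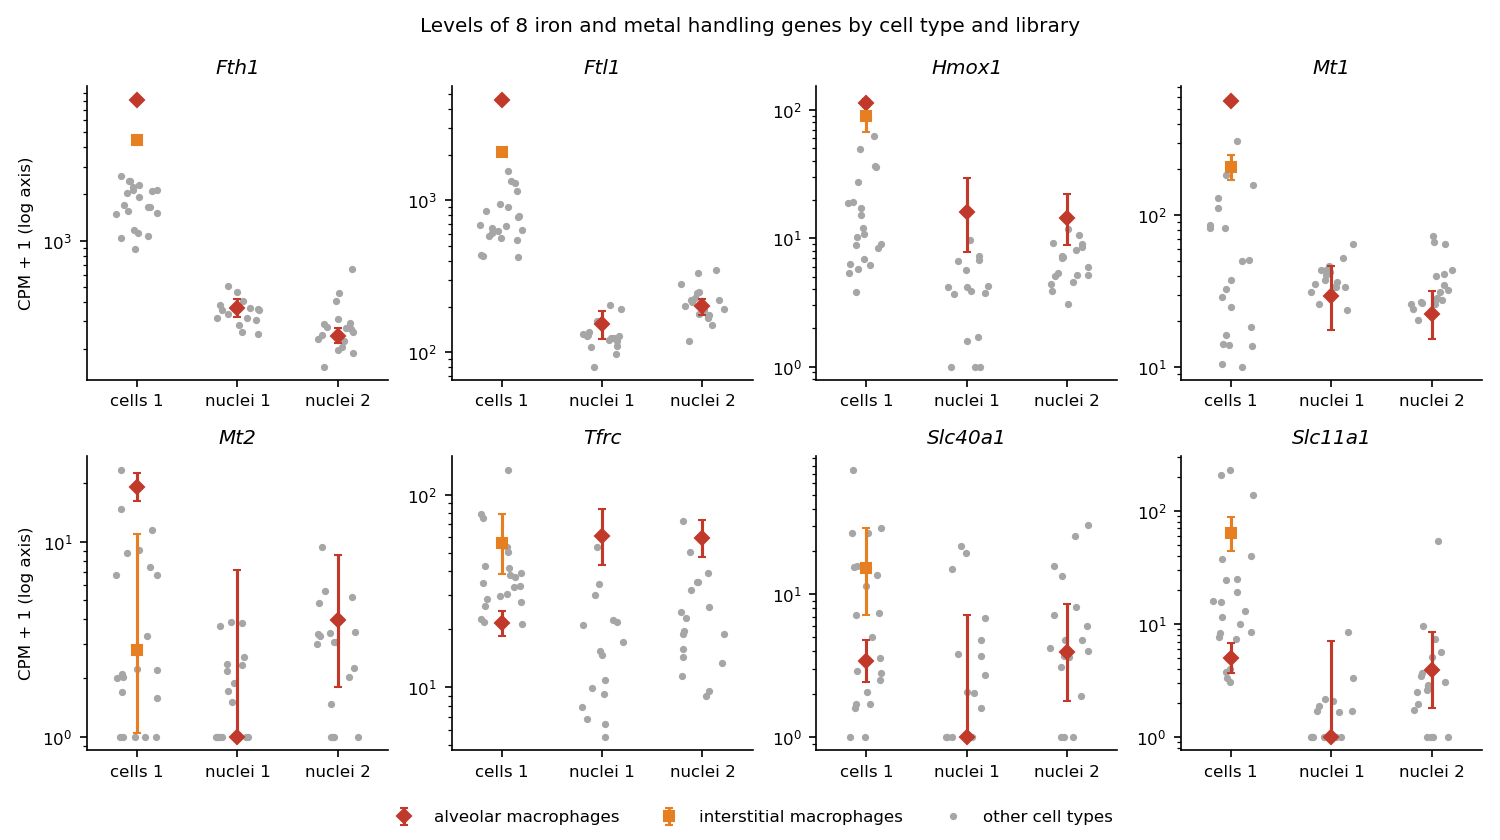
Level of each of the 8 genes (CPM + 1, log axis) in the cell library and both nucleus libraries. Red diamonds are alveolar macrophages and orange squares interstitial macrophages, with exact Poisson 95% intervals, and grey points are the other cell types with at least 50 barcodes. Alveolar macrophages top the panels of Fth1 (8119 CPM), Ftl1, Hmox1 and Mt1 in the cells, and lie among the grey points for Fth1, Ftl1 and Mt1 in nuclei.

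Hmox1, which opens the haem ring and frees its iron, was highest in alveolar macrophages in each of the 3 libraries, although in each its interval overlapped that of the next type. Hmox1 (chromosome 8, 75093618 to 75100593) had 112 CPM in alveolar macrophages of the cells, 14.97 in nuclei 1 and 13.28 in nuclei 2, against 17.4, 3.45 and 5.26 CPM in the other types. In nuclei the counts in alveolar macrophages were small, 9 and 18 UMIs. In the same fit the log2 fold was 2.24 ± 0.37 (SE) with an edgeR adjusted p of 0.00243, higher in 3 of 3 libraries. It was the only one of the 8 members past the threshold of 0.05 here, where 10.2% of all genes tested were called higher and 17.2% lower. Set against each of 14 types on its own in 1 fit over 45 sums, Hmox1 was higher in alveolar macrophages 14 times, by 1.86 (type 2 pneumocytes) to 3.57 (aerocyte capillary endothelium) on the log2 scale, with edgeR adjusted p of at most 0.00443. Over all genes and types 30.5% of such contrasts were called in either direction. In this fit, which gives each type its own sums and averages over cells and nuclei, Fth1 and Ftl1 were also called higher against 14 of 14 types (by 1.22 to 1.61 and by 1.66 to 2.17), Tfrc against 9, Mt1 against 8 and Mt2 against 3. The 45 sums come from 3 libraries, only 1 of them of cells, so they are not 45 independent replicates. In nuclei 1 and nuclei 2 alveolar macrophages ranked 5th of 17 and 13th of 19 types for Fth1, and 4th and 11th for Ftl1. The ferritin calls thus average a large gap in cells with little or none in nuclei.

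In the cells the Hmox1 order was led by myeloid types. After alveolar macrophages (104 to 120 CPM) came interstitial macrophages at 89.0 CPM, classical monocytes at 61.0, non-classical monocytes at 48.4, adventitial fibroblasts at 35.7 and neutrophils at 34.7 CPM. Each of these intervals overlapped that of the next type, and differences between neighbours in this order were not tested. B cells had the lowest level, 2.78 CPM. The cluster led by cell cycle genes had 37.3 CPM, against 114 CPM in the main alveolar macrophage cluster. In nuclei 1 and nuclei 2 the unnamed Cd163 cluster had 9.38 and 2.14 CPM of Hmox1, on 7 and 1 UMIs.

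The receptor that takes up transferrin-bound iron did not follow the ferritins. Tfrc (chromosome 16, 32608896 to 32632794) had 20.5 CPM in alveolar macrophages of the cells, but 59.9 CPM in those of nuclei 1 and 58.3 CPM in those of nuclei 2. The other types had 40.6, 20.4 and 29.1 CPM in those libraries. Alveolar macrophages were thus among the lowest types in the cells, 22nd of 23, but first of 17 and second of 19 in the nucleus libraries. Over all 3 libraries the log2 fold against other types was 0.57 ± 0.41 (edgeR adjusted p 0.351), an average over opposite signs of -0.96 in cells, 1.51 in nuclei 1 and 0.98 in nuclei 2. Type 2 pneumocytes, the surfactant-making cells, had the highest level in cells, 133 CPM, and 52.6 and 71.8 CPM in nuclei. In both nucleus libraries the intervals of alveolar macrophages and type 2 pneumocytes overlapped. Plasmacytoid dendritic cells (78.2 CPM), B cells (74.3) and interstitial macrophages (55.2) followed in the cells, and the interval of interstitial macrophages did not overlap that of alveolar macrophages. Club cells, named only in nuclei, had 33.2 and 49.3 CPM. The unnamed Cd163 cluster, left out of these ranks, had 33.5 and 55.7 CPM in nuclei 1 and nuclei 2.

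Slc11a1, the phagosomal metal transporter, was highest in neutrophils and monocytes and low in alveolar macrophages. Slc11a1 (chromosome 1, 74375014 to 74386057) had 4.01 CPM in alveolar macrophages of the cells, 0 in nuclei 1 and 2.95 in nuclei 2, against 34.7, 0.987 and 2.37 CPM in the other types. The exact Poisson interval of the 0 in nuclei 1 reaches 6.14 CPM, and 3 counts there would be 4.99 CPM. In the cells it reached 230 CPM in neutrophils, 205 CPM in non-classical monocytes, 138 CPM in classical monocytes and 62.3 CPM in interstitial macrophages. In nuclei 1 the highest named type was smooth muscle at 7.55 CPM, on 4 UMIs (2.06 to 19.3 CPM), and in nuclei 2 smooth muscle had 0. The highest named type of nuclei 2 was non-classical monocytes at 53.2 CPM. The unnamed Cd163 cluster had 76.4 and 32.1 CPM in nuclei 1 and nuclei 2, above all named types of nuclei 1. The log2 fold of alveolar macrophages against the other types was -2.08 ± 0.70 (edgeR adjusted p 0.0563), and it rested on the cell library, since without it the value was 0.02.

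Ferroportin transcripts were low in alveolar macrophages and concentrated in a few structural types and neutrophils. Slc40a1 (chromosome 1, 45908070 to 45926532) had 2.41 CPM in alveolar macrophages of the cells (18 UMIs), 0 in nuclei 1 and 2.95 in nuclei 2 (4 UMIs). The other types had 8.36, 4.59 and 5.06 CPM, above alveolar macrophages in 3 of 3 libraries. In nuclei 1 and nuclei 2, however, these values lie inside the macrophage intervals, 0 to 6.14 and 0.804 to 7.56 CPM. The log2 fold was -1.46 ± 0.56 with an edgeR adjusted p of 0.0868, so it was not called. Against single types it was called lower 3 times of 14, and the largest difference was against aerocyte capillary endothelium, the flat endothelial cells of gas exchange, at -3.54 on the log2 scale (edgeR adjusted p 0.00015). Aerocytes had 28.4 CPM in cells, 18.5 in nuclei 1 and 24.5 in nuclei 2, and lymphatic endothelium had 26.0 CPM in the cell library, against 29.7 CPM in nuclei 2. Alveolar fibroblasts had 12.7, 20.8 and 14.8 CPM, and adventitial fibroblasts 14.9, 14.0 and 12.4 CPM in cells, nuclei 1 and nuclei 2. The log2 folds of cells over nuclei were 0.34 ± 0.49 in aerocytes and 0.13 ± 0.68 in adventitial fibroblasts, and neither was called (edgeR adjusted p 0.633 and 0.906). In alveolar fibroblasts the fold was -0.59 ± 0.49, in a comparison where edgeR called none of the genes tested. Neutrophils had 73.7 CPM and interstitial macrophages 14.2 CPM in the cells.

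**Figure D2:**
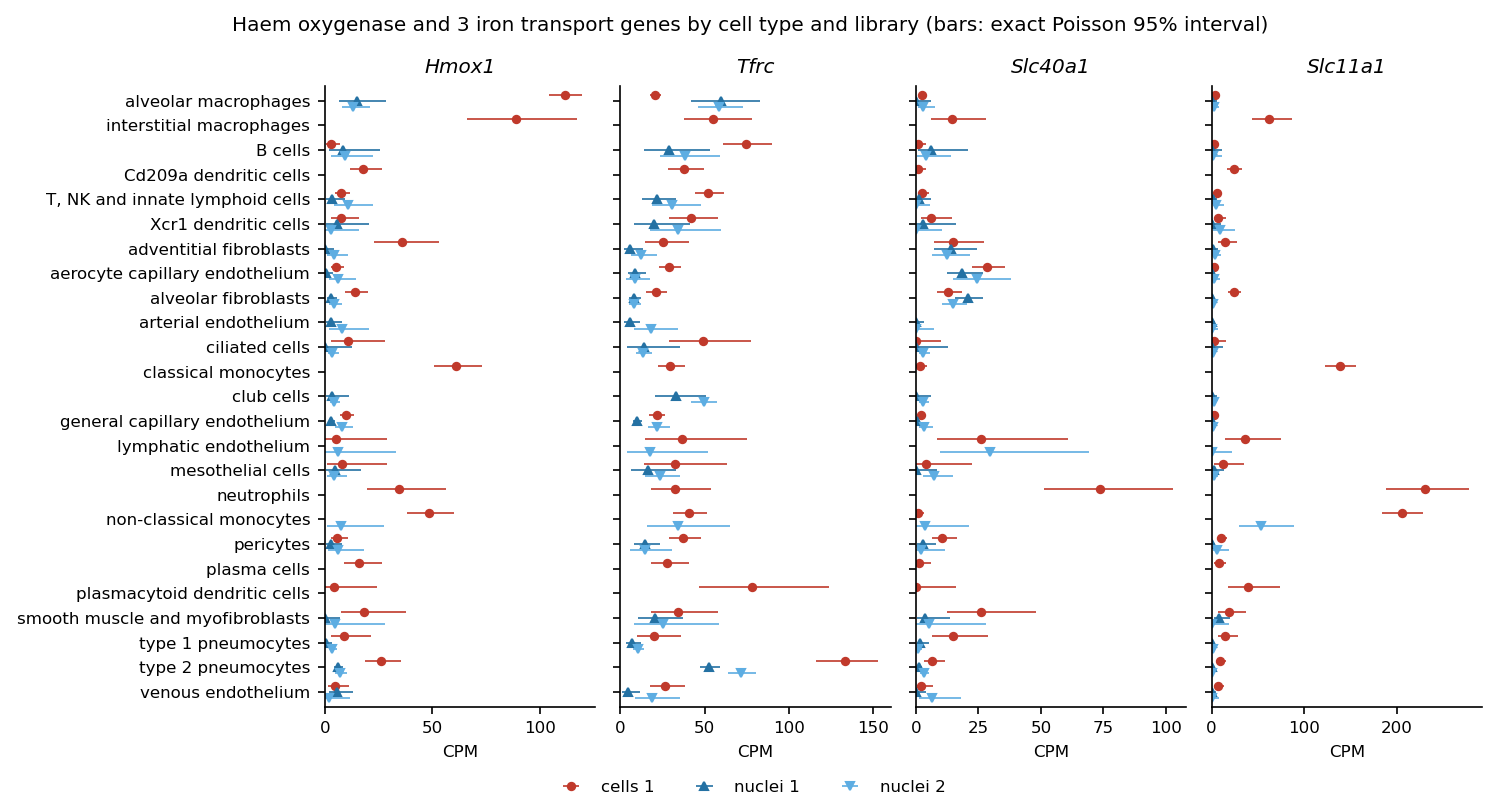
CPM of Hmox1, Tfrc, Slc40a1 and Slc11a1 in each cell type with at least 50 barcodes in a library (linear axes starting at 0). Red circles are cells, dark blue and light blue triangles are nuclei 1 and nuclei 2, and bars are exact Poisson 95% intervals; a missing symbol means that the type was not named or had too few barcodes there. Alveolar macrophages, in the top row, lead for Hmox1, change place between cells (20.5 CPM) and nuclei (59.9 and 58.3 CPM) for Tfrc, and lie near 0 for both Slc genes.

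Metallothionein transcripts were high in alveolar macrophages of the cell library and not in those of nuclei. Mt1 (chromosome 8, 94178883 to 94180327) had 559 CPM in alveolar macrophages of the cells, 28.3 in nuclei 1 and 21.4 in nuclei 2, against 48.9, 37.6 and 29.4 CPM in the other types. The log2 ratios were 3.49, -0.40 and -0.44, and the fit over all 3 gave 0.99 ± 0.84 (edgeR adjusted p 0.435). In nuclei 1 and nuclei 2 alveolar macrophages held 17 and 29 Mt1 UMIs. Their intervals, 16.5 to 45.3 and 14.3 to 30.7 CPM, contain the level of the other types, so the negative signs lie within counting error. In cells the next levels were 308 CPM in ciliated cells, 205 in interstitial macrophages and 183 in Cd209a dendritic cells. The lowest was 9.10 CPM in aerocyte capillary endothelium. Alveolar macrophages, 19.0% of the cells, gave 74.2% of the Mt1 UMIs of their library, whereas they gave 1.62% and 3.67% in nuclei 1 and nuclei 2. Per barcode, Mt1 stood at 1.84 UMIs in alveolar macrophages of the cells, against 0.110 and 0.0636 in nuclei 1 and nuclei 2, where the other types spanned 0.0930 to 0.197 and 0.0585 to 0.167. Mt2 (chromosome 8, 94172618 to 94173567) is the neighbouring gene. It had 18.1 CPM in alveolar macrophages of the cells, 0 in nuclei 1 and 2.95 in nuclei 2, against 3.20, 0.911 and 2.10 CPM in the other types (log2 fold 1.71 ± 0.69, edgeR adjusted p 0.101). Adventitial fibroblasts were highest in the cells at 22.3 CPM.

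Whether the macrophage difference itself was larger in cells than in nuclei was tested with an interaction term. The difference was more positive in cells for Mt1 (4.26 ± 0.45 on the log2 scale, edgeR adjusted p 7.462e-18), Ftl1 (2.74 ± 0.38, 1.338e-10) and Fth1 (2.58 ± 0.36, 1.619e-10), and more negative for Tfrc (-1.93 ± 0.45, 0.000809). These are 4 of 8 members, where 2.32% of 17293 genes were called in the first direction and 3.17% in the second. Hmox1 (1.35 ± 0.50, edgeR adjusted p 0.0993), Mt2 (2.59 ± 0.99, 0.117), Slc11a1 (-2.86 ± 1.15, 0.149) and Slc40a1 (-0.18 ± 1.14, 0.980) did not pass, and their errors are wide. The fit has 1 residual degree of freedom and 1 cell library, so its p-values rest largely on spread pooled over genes. With DESeq2 the calls for Fth1, Ftl1 and Mt1 held, whereas that for Tfrc was lost (adjusted p 0.385).

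**Figure D3:**
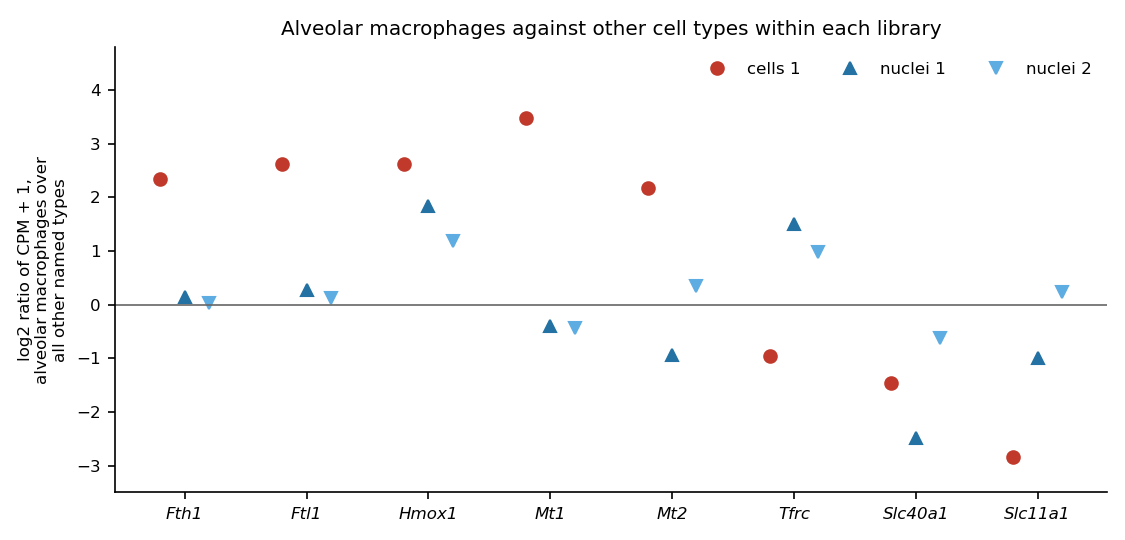
Log2 ratio of CPM + 1 in alveolar macrophages over all other named types, for each gene in the cells (red circles), nuclei 1 (dark blue triangles) and nuclei 2 (light blue triangles). Hmox1 lies above 0 in all 3 libraries, Fth1, Ftl1 and Mt1 are high in the cells only, and Tfrc is below 0 in the cells (-0.96) and above 0 in both nucleus libraries (1.51 and 0.98).

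Set directly against nuclei, alveolar macrophages of the cell library had far more ferritin, Mt1 and Hmox1 transcript and less Tfrc. With edgeR over 12053 genes, Fth1 was higher in cells by 5.19 ± 0.40 on the log2 scale (adjusted p 2.079e-07), Ftl1 by 5.16 ± 0.36 (1.298e-07), Mt1 by 4.99 ± 0.33 (1.107e-07), Mt2 by 3.63 ± 0.79 (0.0022) and Hmox1 by 3.47 ± 0.35 (1.748e-06). Tfrc was lower, by -1.07 ± 0.35 (adjusted p 0.0258). The 6 members that passed the filter on low counts were thus called, beside 23.8% of all genes called higher and 14.3% lower; Slc40a1 and Slc11a1 did not pass it. These folds follow TMM scaling, which moved the fold of Fth1 by 0.45 and that of Tfrc by 0.46 from the ratio of the printed CPM, where Tfrc stood at -1.53. The call for Tfrc was lost with DESeq2 (adjusted p 0.260) and with no filter on low counts (0.0734). Mt2 rests on 0 and 4 UMIs in the nuclei, and DESeq2 gave it no adjusted p.

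The same comparison within the other types showed that ferritin was higher in cells nearly throughout, and by most in alveolar macrophages. Among the 15 types with at least 50 barcodes in every library, Fth1 was called higher in cells in 13, by 1.53 in B cells to 5.19 in alveolar macrophages on the log2 scale, with a median of 2.82 over all 15 types. Over all genes and types 12.9% of such tests were called higher and 7.07% lower, and by type the share called higher ran from 0% in alveolar fibroblasts and 3.58% in pericytes to 23.8% in alveolar macrophages. In alveolar fibroblasts edgeR called 0 of 14117 genes in either direction (4179 at an unadjusted p under 0.05, and 1077 called with DESeq2), so that the lack of a call there says nothing of a single gene. Ftl1 was called higher in 11 types, and the 4 not called were B cells (1.01 ± 0.47), T, NK and innate lymphoid cells (1.20 ± 0.42), alveolar fibroblasts (2.25 ± 0.36) and pericytes (1.78 ± 0.40). Fth1 stood at 2.99 ± 0.42 in alveolar fibroblasts and at 2.06 ± 0.46 in pericytes, its 2 types with no call. DESeq2 called Fth1 in 15 types and Ftl1 in 12. Tfrc was called higher in cells in 5 types, from type 2 pneumocytes (1.11 ± 0.33) to ciliated cells (1.81 ± 0.72), and lower only in alveolar macrophages. In its 9 other types the log2 folds were positive and not called, and DESeq2 called Tfrc in 0 of 15 types (5 without an adjusted p), where edgeR had 8 at an unadjusted p under 0.05. Mt1 split by type: it was called higher in cells in 6 types, among them ciliated cells (3.19 ± 0.37) and Xcr1 dendritic cells (2.52 ± 0.55), and lower in B cells (-1.93 ± 0.58), venous endothelium (-1.83 ± 0.65), aerocytes (-1.82 ± 0.55) and general capillary endothelium (-1.52 ± 0.41). DESeq2 called Mt1 in 3 of 15 types. Hmox1 passed the filter in 7 types and was called higher in alveolar macrophages, adventitial fibroblasts and type 2 pneumocytes, and in 1 type with DESeq2, which gave no adjusted p in 3. Slc40a1 was tested in 7 types with log2 folds of -0.59 in alveolar fibroblasts to 3.28 ± 1.08 in type 1 pneumocytes. Neither edgeR nor DESeq2, which gave no adjusted p in 5 types, called it in any, and 1 type had an unadjusted edgeR p under 0.05. Slc11a1 was called higher in type 2 pneumocytes, 1 of 4 types tested, and Mt2 in alveolar macrophages and adventitial fibroblasts, 2 of 4. DESeq2 gave Mt2 no adjusted p in any of the 4.

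**Figure D4:**
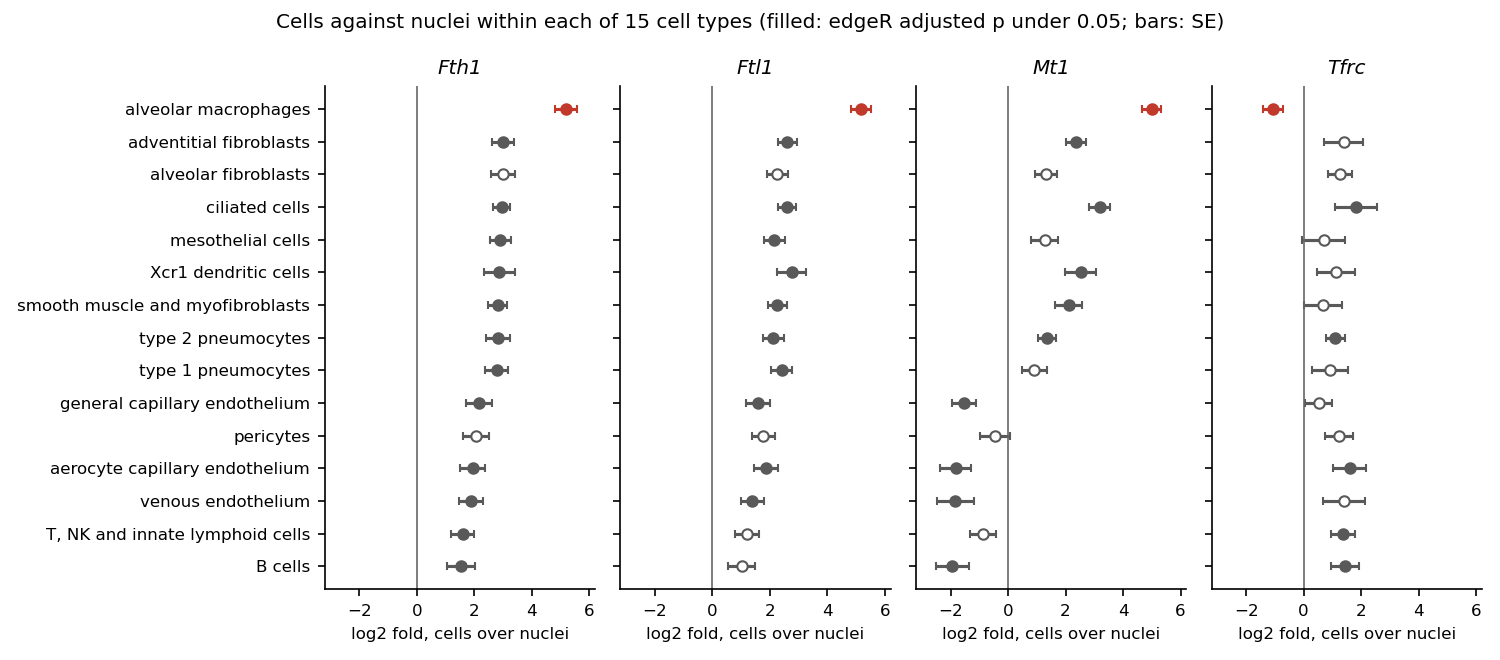
Log2 fold of cells over nuclei (edgeR, ± SE) for Fth1, Ftl1, Mt1 and Tfrc in each of 15 cell types, with alveolar macrophages in red at the top. Filled points passed an adjusted p of 0.05. Fth1 and Ftl1 lie right of 0 in every type and farthest in alveolar macrophages (5.19 and 5.16), Mt1 lies on both sides, and Tfrc is left of 0 in alveolar macrophages alone (-1.07).

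Over whole libraries, where the share of each cell type also counts, 6 of 8 members were higher in cells, beside 16.3% of 19806 genes called higher and 8.19% lower with edgeR. Fth1 had 3000 CPM in cells, against 335 and 239 CPM in nuclei (log2 fold 3.54 ± 0.49, adjusted p 0.0073), and Slc11a1 had 29.9 CPM, against 2.99 and 2.91 CPM (3.504 ± 0.36, 0.00494). Ftl1, Hmox1, Mt1 and Mt2 were the other 4, at 3.52, 3.19, 2.38 and 2.22. Tfrc had 36.6 CPM in cells, against 21.6 and 31.0 CPM in nuclei, and Slc40a1 had 7.32 CPM, against 4.58 and 5.01 CPM, and they were not called (edgeR adjusted p 0.183 and 0.242). Alveolar macrophages were 19.0% of the cells and 2.28% and 4.65% of the nuclei. Neutrophils and classical monocytes, which held 106 and 277 of the 1075 Slc11a1 UMIs of the cell library, were named only among the cells. Non-classical monocytes held 339 of them, and their level was 205 CPM in cells, against 53.2 CPM in nuclei 2. These whole-library sums alone cannot tell a smaller share of a type from a lower level within it. Levels within the 15 types compared above are not weighted by the shares, and Fth1 had a median log2 fold of 2.82 there. Markers of other types were counted within alveolar macrophages too, and whether levels within a type depend on the shares in that way was not tested.

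The wider pathways were read from 9 lists of iron, haem and metal genes that include the members. Their counts between alveolar macrophages and the other types stand beside 10.2% of all genes called higher and 17.2% lower. The list of Nrf2 targets also holds Nfe2l2, which encodes Nrf2 itself, and Keap1, which regulates it. Between alveolar macrophages and the other types (edgeR), 6 of 22 haem genes were higher, with a list median of 0.35 on the log2 scale, against -0.07 over all genes. With edgeR and with DESeq2 0 haem genes were called lower, and 3 were lower at an unadjusted edgeR p under 0.05. Flvcr2, a transporter that has been linked to haem, had 325 CPM in alveolar macrophages of the cells and 411 and 278 CPM in those of nuclei, against 18.3, 40.4 and 46.8 CPM in the other types (3.43 ± 0.37, adjusted p 0.000371). The biliverdin reductases, which act after Hmox1, were higher too: Blvra by 2.89 ± 0.22 and Blvrb by 1.49 ± 0.26. Lrp1, a receptor that clears haem bound to haemopexin, was higher by 2.41 ± 0.28. These 4 genes were higher in alveolar macrophages in 3 of 3 libraries, and so, like Hmox1, in both preparations.

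The list of iron export and its regulators, here the export list, had 4 of 8 genes lower (Bmp6, Cp, Smad7 and Tmprss6), with a median of -1.46. It had 0 genes higher with edgeR, at an unadjusted p under 0.05 (0) and with DESeq2 (0) alike. The exporter Slc40a1 itself was among the genes not called. Bmp6, the signal that tells the liver of high iron, had 40.0 CPM in alveolar macrophages of the cells and 36.6 and 140 CPM in those of nuclei, against 487, 1020 and 539 CPM in the other types (-3.28 ± 0.50, edgeR adjusted p 0.0017). Smad7, an inhibitor of that signal, was lower by -2.00 ± 0.35, and ceruloplasmin, Cp, which oxidises iron as it leaves the cell, by -1.46 ± 0.35. The uptake list had 3 of 13 genes higher and 4 lower (median -0.33), including the zinc and iron importer Slc39a8 at -2.02 ± 0.24. The storage list had 1 of 5 genes higher, Ncoa4, the receptor that carries ferritin to the lysosome, which had 233 CPM in alveolar macrophages of the cells and 53.2 and 79.7 CPM in those of nuclei, against 30.5, 14.4 and 18.2 CPM in the other types (2.44 ± 0.32). Of 4 sensing genes 2 were higher and 1, the hypoxia factor Epas1, was lower (-1.94 ± 0.32). The mitochondrial list of 9 genes had 0 calls with edgeR or DESeq2 and 0 at an unadjusted edgeR p under 0.05. Metallothioneins and zinc had 3 of 18 higher and 1 lower, copper 2 of 8 higher and 2 lower, with the copper pump Atp7b at -2.56 ± 0.34, and Nrf2 targets 3 of 13 higher and 1 lower, with glutathione reductase, Gsr, at 1.68 ± 0.30.

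Some of these genes also differed with preparation, in either direction. For Flvcr2 the log2 fold of cells over nuclei was 0.37 in alveolar macrophages, unlike the ferritins. The other types had 18.3 CPM of Flvcr2 in cells, against 40.4 and 46.8 CPM in nuclei. In the interaction fit, Flvcr2 was called more positive in cells (1.51 ± 0.41, edgeR adjusted p 0.00708), and haptoglobin, Hp, which binds free haemoglobin (-1.75 ± 0.43, 0.00215), and Cp (-1.43 ± 0.43, 0.0239) more negative. By list, 2 of 5 storage genes, 2 of 22 haem genes, 1 of 18 metallothionein and zinc genes and 3 of 13 Nrf2 targets were more positive in cells, beside 2.32% of all genes. More negative were 2 of 13 uptake genes, 1 of 8 genes of the export list and 1 of 22 haem genes, beside 3.17% of all genes. These edgeR counts hold members again: Fth1 and Ftl1 in the storage and the Nrf2 list, Mt1 in the metallothionein list and Tfrc in the uptake list. With DESeq2 the calls in the haem, uptake and export lists were all lost, those of Flvcr2, Hp and Cp among them. DESeq2 called 2 storage genes (Fth1 and Ftl1), 1 metallothionein and zinc gene (Mt1) and 2 Nrf2 targets (Fth1 and Ftl1 again). No list gene outside the members was thus called with DESeq2. With edgeR and DESeq2 0 of the 4 sensing, 9 mitochondrial and 8 copper genes were called, and 1 mitochondrial gene was more positive at an unadjusted edgeR p under 0.05. Within alveolar macrophages, 4 of 5 storage genes and 9 of 11 genes of the Nrf2 list were higher in cells than in nuclei. The list medians were 2.96 and 1.67, against -0.01 over all genes, of which 23.8% were called higher and 14.3% lower. Nfe2l2 itself and the members Fth1, Ftl1 and Hmox1 are among the 9. DESeq2 called 4 of the storage genes and 4 of the Nrf2 targets higher, with Fth1 and Ftl1 in both counts. The copper chaperone Atox1 was higher by 4.08 ± 0.32 (319 CPM in cells, 25.0 and 26.6 CPM in nuclei), and the iron chaperone Pcbp1, which loads ferritin, by 2.96 ± 0.32 (215 CPM in cells, 43.3 and 33.9 CPM in nuclei). Glrx5 (3.07) and Isca1 (3.004), which act in the assembly of iron-sulphur clusters, the BMP target Id1 (2.75) and the haem transporter Slc48a1 (2.72) were higher as well. Hp was lower, at 8.83 CPM in cells against 99.8 and 141 CPM in nuclei (-3.32 ± 0.39), as were Nfs1, the cysteine desulfurase of cluster assembly (-2.64), Cp (-2.59), Slc39a8 (-1.91), the constitutive haem oxygenase Hmox2 (-1.20) and the zinc transporter Slc30a9 (-1.05). The other lists had 2 of 8 lower for uptake, and, higher and lower in turn, 3 of 6 and 1 for export, 1 of 4 and 1 for sensing, 4 of 20 and 2 for haem, 4 of 9 and 1 for the mitochondrial list, 5 of 18 and 2 for metallothioneins and zinc, and 3 of 8 and 1 for copper. Several of these counts lie near the shares over all genes. With DESeq2 the sensing calls and the lower calls of the uptake, metallothionein and zinc lists were lost, Slc39a8 and Slc30a9 among them, and so was the call for Hmox2.

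Over whole libraries 4 of 5 storage genes, 5 of 13 Nrf2 targets, 6 of 19 metallothionein and zinc genes and 6 of 22 haem genes were higher in cells with edgeR, beside 16.3% of all genes. Members are among them, with Fth1 and Ftl1 counted in both the storage and the Nrf2 list. Among genes outside the 8, the cystine transporter Slc7a11 led with a log2 fold of 3.80 ± 0.56 (78.7 CPM in cells, against 3.25 and 9.76 CPM in nuclei), with Hfe, the haemochromatosis gene (2.54), and the copper-dependent ferroxidase Heph (2.27) also called. Atp7b (-4.13 ± 0.56), Slc39a8 (-2.45), Nfs1 (-1.90), Hp (-1.74) and Alas1, the first enzyme of haem synthesis (-1.24), were lower in cells.

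The patterns of the members were compared with all genes by correlating log2 levels over 45 sums of 15 types and 3 libraries; sums share libraries and depth, and the values are descriptions. Of 13654 genes, Ftl1 was the most like Fth1 (Pearson r 0.92), followed by the autophagy gene Gabarap and the peroxiredoxin Prdx1 (0.87 each). Fth1 was in turn the most like Mt1 (0.80). For Hmox1 the leading genes were Ear2 (0.72), Mcemp1 and Fcgr3 (0.71 each), for Tfrc they were Chsy1 (0.77), Snd1 (0.75) and Acly (0.74), and for Slc40a1 Efr3b (0.74) and Pcolce2 (0.73). Slc11a1 was most like Podxl2 and Gm11747 (0.62 each), and Mt2 like Mgst1 (0.66) and Mt1 (0.64). Between the members, Fth1 correlated with Hmox1 at 0.63 and with Tfrc at 0.09. Within a library, over 15 types, the r of Fth1 with Mt1 was 0.85 in cells and 0.59 and 0.79 in nuclei, whereas that of Fth1 with Hmox1 was 0.90 in cells and 0.26 and 0.55 in nuclei, and that of Fth1 with Tfrc was -0.28 in cells and 0.40 and 0.49 in nuclei.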

How the data were processed

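The authors deposited UMI counts per gene and barcode, in 1 table of cells and 1 of nuclei; the submitters' processing notes name STAR 2.5.3a and the build mm10. How intronic reads and strand were counted is not given in the sources. The members and the gene lists were chosen with earlier results of these data known. Genes in both tables were used (21507 of 22588 and 22640). Barcodes needed 400 genes and a mitochondrial share below 20%, and Scrublet doublet calls were removed only where they exceeded 0.5% of a library (85 nuclei of replicate 1; 11 cells and 8 nuclei of replicate 2 were called and kept). Each table was clustered with scanpy 1.11.5 (Leiden, resolution 1, 2000 genes, 30 components, 20 neighbours), leaving out the members and all list genes. Clusters were named where at least 3 markers were 2-fold higher and present in 10% of barcodes; 242 barcodes lay in mixed clusters and 432 stayed unnamed. T, NK and innate lymphoid clusters were merged after seeing the data. Counts were summed per library and type and tested with edgeR 4.0.16 (quasi-likelihood, TMM, filterByExpr, Benjamini-Hochberg over all genes tested); DESeq2 1.42.0 was an alternative. CPM are unscaled. Named list genes had at least 20 CPM in 1 group, an adjusted p under 0.05, a 2-fold change and all libraries on 1 side, at most 6 per direction. On simulated data, edgeR recovered 26% of 2-fold and 100% of 4-fold changes between alveolar macrophages and other types (5 false of 168 calls over 17046 genes), and 12% and 88% between cells and nuclei within them (4 false of 154 over 11308 genes). IRE letters came from GENCODE M21 transcripts.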

Additional observations from a re-analysis of the deposited data

Results flagged for a closer look

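For 4 genes the difference between alveolar macrophages and the other types was itself tested and differed between cells and nuclei. The log2 difference was larger in cells than in nuclei by 2.58 for Fth1, by 2.74 for Ftl1 and by 4.26 for Mt1. For Tfrc it was -1.93, with alveolar macrophages below the other types in the cells and above them in both nucleus libraries. Without nuclei 1 or nuclei 2 the values, which then have no test, were 2.77 and 2.52 for Fth1, 2.95 and 2.65 for Ftl1, 4.42 and 4.24 for Mt1, and -1.54 and -2.23 for Tfrc. Among the libraries of alveolar macrophages, the club cell markers (1475 CPM in cells, 17212 and 15131 CPM in nuclei) and the red blood cell markers (1043 CPM in cells, 343 and 105 CPM in nuclei) also moved with preparation, and their part in these differences was not tested.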

How the results depend on the processing

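Hmox1 stayed called higher in alveolar macrophages than in other types under every alternative run. The count of members called in that comparison, 1, moved to 3 with no filter on low counts (Hmox1, Slc11a1, Mt2) and to 6 with each other type weighted equally (Fth1, Ftl1, Hmox1, Tfrc, Mt1, Mt2). With 1 library left out it was 2 to 6: Hmox1 and Tfrc without the cells, Hmox1 and Mt2 without nuclei 1, and all but Tfrc and Slc40a1 without nuclei 2. With 1 library left out, Slc11a1 ran from -2.84 to 0.024 and Mt1 from -0.45 to 1.92, each changing sign without the cells (0.024 and -0.45), and with DESeq2 the interaction of Slc40a1 changed sign to 0.19. Hmox1 passed the interaction test with RLE scaling (adjusted p 0.0436) and with no filter (0.0406). Over all genes, DESeq2 called 168 in the interaction, where edgeR called 951, and 1874 between cells and nuclei in alveolar macrophages, where edgeR called 4594; the cause was not tested. No paired analysis was possible because the labels name no animals that would pair cells with nuclei, and there was 1 cell library. Interstitial macrophages were named in cells only, so their test against other types and its alternatives were not run. Values without 1 nucleus library in the interaction were added after seeing the data and are not given where a sum was 0. Slc40a1, Slc11a1 and Mt2 are limited by depth, with at most 4 UMIs in alveolar macrophages of a nucleus library.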
